A study of Mus musculus with 20 samples.

Results

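Ferritin, the cell's iron store, is built from heavy chains encoded by Fth1 and light chains encoded by Ftl1, and a related mitochondrial ferritin is encoded by Ftmt. All probe sets of an Affymetrix mouse genome array whose annotation is or contains one of these symbols were taken, which gave 6 of 45101, for 3 of the 19324 gene symbols on the array. Fth1 had 2 probe sets of its own (1427021_s_at and 1448771_a_at) and Ftmt had 1 (1421347_at). Ftl1 had none to itself: 1418364_a_at and 1422302_s_at also carry the symbol of the pseudogene Ftl1-ps2, and 1422301_at carries Ftl1-ps2 and the microRNA genes Mir692-1, Mir692-2 and Mir692-3 as well. Signal on these 3 may therefore come from either the Ftl1 mRNA or a near-identical copy, and every value given for Ftl1 below has this limit.

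The ferritin shell takes up ferrous iron, which the heavy chain oxidises at its ferroxidase site, while the light chain favours growth of the iron core. Iron regulatory protein 2 (IRP2) binds the iron-responsive element (IRE), a stem-loop near the 5′ end of the heavy and light chain mRNAs, and blocks their translation when iron is scarce. Mitochondrial ferritin, known mainly from testis and a few other iron-using tissues, is made from an mRNA for which no such element is known. The element's letters were not analysed here.

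Each of 5 mouse tissues contributed 2 arrays of RNA recovered with IRP2 and 2 of RNA recovered in a parallel reaction without the protein, 20 arrays in 10 groups. The mice were C57BL6/J of mixed sex. For duodenum, liver and spleen, total RNA was pooled from 4 mice kept for 21 days after weaning on iron-poor food (below 10 mg/kg), and for bone marrow and brain from 6 mice aged 8 to 10 weeks on a diet with normal iron. A reaction combined 50 µg of RNA with IRP2 carrying a His tag, purified from E. coli, and an antibody against the tag, and 120 ng of recovered RNA was amplified. The source field of the control arrays also lists the protein, so the reaction was taken from the titles. Recombinant protein was added to purified RNA, so these values concern RNA recovered in a tube and not complexes formed in the tissue. Diet, age and tissue cannot be told apart between the iron-poor and iron-normal tissues. Both replicates may draw on 1 RNA pool, so the tests measure only the spread between these arrays, which may be technical, and the number of arrays limits the precision.

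Levels are the deposited log2 probe set values, and a ratio is the level with IRP2 minus the level in the control reaction, on the same log2 scale. Tests were made with limma over the 30153 probe sets bright enough to be tested, among them all 6 of ferritin. A call is an adjusted p (Benjamini-Hochberg) under 0.05, and the replicate block is the same fit with tissue and replicate number as a block. Array medians lay between 5.65 and 5.71 on 1 set of arrays (brain replicate 1, liver, duodenum) and between 5.39 and 5.55 on the others, so levels of different tissues are compared only loosely and ranks on the array are given beside them. Tissue markers were highest in the control reactions of their own tissue for 3 of 5 genes for brain, 5 of 5 for bone marrow, 3 of 4 for spleen and 4 of 4 each for liver and duodenum. Bone marrow control replicate 1 stood apart, correlating with the spleen arrays at a mean Spearman rho of 0.908, where the remaining bone marrow arrays had 0.824 to 0.825. Bone marrow ratios are given with and without it.

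Over the 5 tissues, both cytosolic ferritin mRNAs were recovered at higher levels with IRP2. The light chain probe set 1418364_a_at had a mean ratio of 2.94 ± 0.22 (SE, n = 10 arrays per reaction), a 7.65-fold difference, which was the 2nd highest of all 30153 probe sets tested. Its companion 1422302_s_at came 4th at 2.44 ± 0.25, a 5.44-fold difference. The heavy chain probe sets had smaller ratios, 1.13 ± 0.14 on 1448771_a_at and 0.83 ± 0.09 on 1427021_s_at. The remaining light chain probe set, 1422301_at, had 0.87 ± 0.09. Mitochondrial ferritin had 0.17 ± 0.16 and was not called (adjusted p = 1.0).

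Thus 5 of the 6 ferritin probe sets rose on the mean over tissues, with adjusted p-values from 1.95e-06 to 0.000362, where 0.365% of all tested probe sets did so. The same 5 were higher with IRP2 in all 10 replicate pairs, which held for 0.869% of tested probe sets. In each tissue, both IRP2 arrays of these probe sets lay above both control arrays, a separation in all 5 tissues seen for 0.229% of tested probe sets. The median ratio over the 6 ferritin probe sets was 1.00, against -0.02 over all tested.

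**Figure D1:**
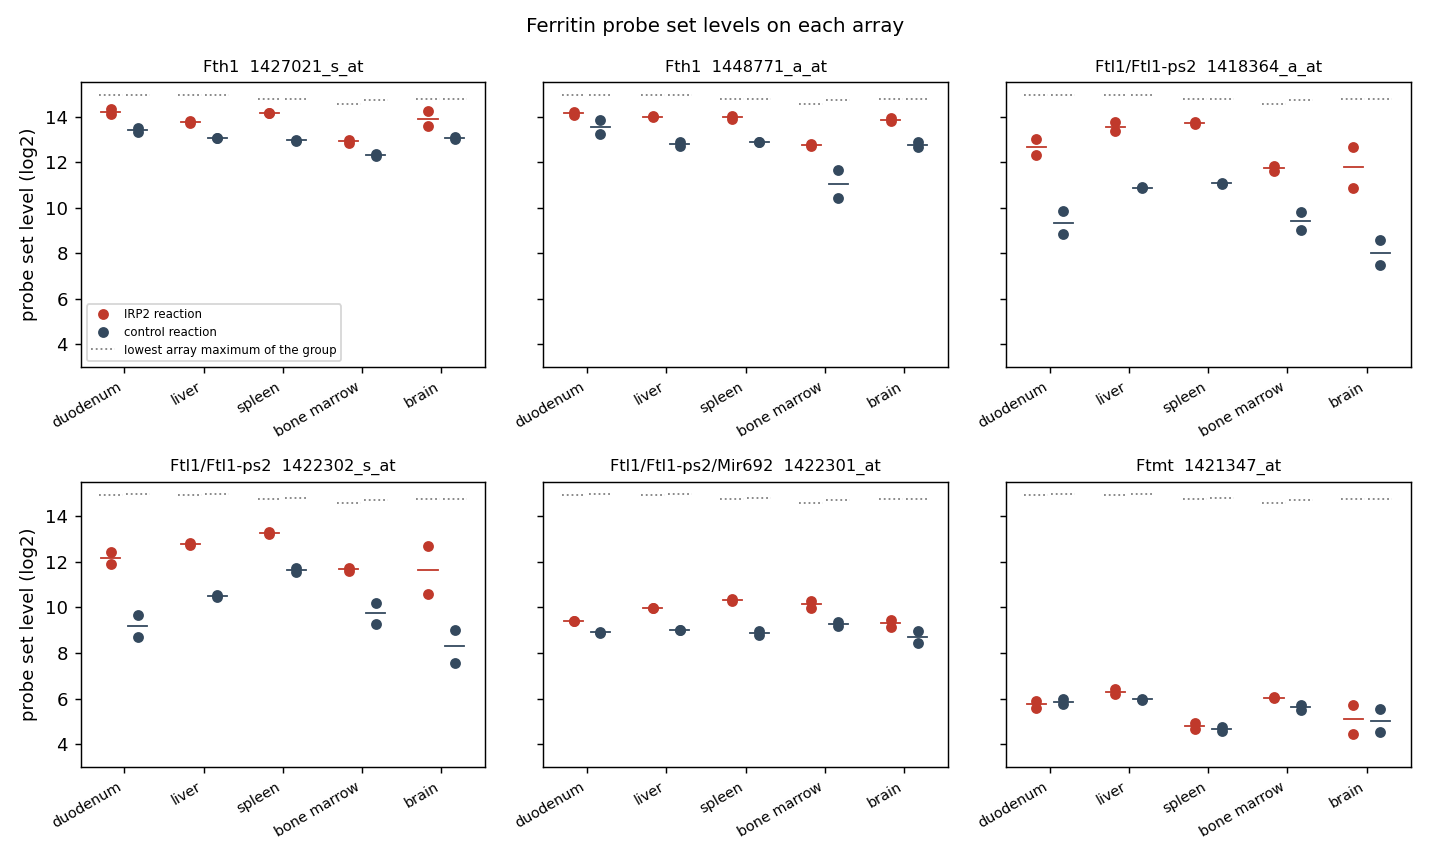
Log2 level of the 6 ferritin probe sets on each of the 20 arrays, by tissue, IRP2 reaction (red) left of control reaction (dark); short bars are the means of 2 arrays and dotted lines the lowest array maximum of the group. IRP2 points lie above control points in every tissue for the Fth1 and Ftl1 probe sets, the Fth1 points lie above 12 except the bone marrow controls of 1448771_a_at, and Ftmt points of both reactions lie between 4.46 and 6.41.

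The heavy chain mRNA was among the brightest signals even without IRP2. On 1427021_s_at, duodenum had 14.09 and 14.32 with IRP2, against 13.34 and 13.48 in control reactions. Liver had 13.74 and 13.80 with IRP2, against 13.06 and 13.06 in controls. Spleen had 14.14 and 14.14 with IRP2, against 12.99 and 12.91 in controls. The reactions did not overlap in these iron-poor tissues, and the spleen arrays were furthest apart. Such a separation was seen for 14.4% of tested probe sets in duodenum, 13.9% in liver and 15.6% in spleen. Bone marrow had 12.85 and 12.97 with IRP2, against 12.36 and 12.25 in controls. Brain had 13.59 and 14.22 with IRP2, against 13.11 and 13.02 in controls. The reactions did not overlap in bone marrow or brain either, which held for 14.5% and 4.21% of tested probe sets. The brain IRP2 arrays differed from each other by more than the first of them differed from its control. Among the 45037 probe sets of an array that are not Affymetrix controls, 1427021_s_at ranked 2nd to 29th with IRP2, and 32nd to 177th in control reactions.

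Per tissue, the ratio of 1427021_s_at was 1.19 in spleen, 0.84 in brain, 0.80 in duodenum, 0.71 in liver and 0.61 in bone marrow, each ± 0.21 (SE, n = 2 per reaction). It was called in none of them by limma (adjusted p from 0.051 in spleen to 1.0 in liver), although each was under 0.05 before adjustment. The replicate block called it in spleen (adjusted p = 0.00769), and with array weights in liver (adjusted p = 0.0131) and spleen; spleen was also called with no filter, quantile normalization or the spleen arrays alone (adjusted p = 0.0461, 0.0271 and 0.000227). The ratio in brain was 0.49 in replicate pair 1 and 1.20 in pair 2, the widest difference between pairs of any tissue for this probe set.

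The other heavy chain probe set, 1448771_a_at, gave larger ratios outside duodenum and spleen. Duodenum had 14.09 and 14.20 with IRP2, against 13.25 and 13.86 in controls, and its pair ratios of 0.83 and 0.35 were the lowest of this probe set. Liver had 13.96 and 14.03 with IRP2, against 12.72 and 12.90 in controls. Spleen had 14.03 and 13.90 with IRP2, against 12.90 and 12.88 in controls. Brain had 13.79 and 13.91 with IRP2, against 12.64 and 12.86 in controls. The liver, spleen and brain pairs thus gave like ratios, from 1.02 to 1.23.

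Bone marrow differed on this probe set. It had 12.78 and 12.71 with IRP2, against 11.65 and 10.42 in controls, so the IRP2 arrays were close together and the controls were not. The ratio was 1.71 ± 0.30 (limma, adjusted p = 0.148, or 0.0116 with the replicate block). Without control replicate 1, the array that stood apart, it was 2.33 (adjusted p = 0.00616), and without control replicate 2 it was 1.09 (adjusted p = 0.0261). The size of the bone marrow ratio therefore depends on which control is used, by more than the SE. For the other ferritin probe sets, leaving out control replicate 1 gave bone marrow ratios of 0.66 on 1427021_s_at, 2.71 on 1418364_a_at, 2.39 on 1422302_s_at, 0.76 on 1422301_at and 0.32 on Ftmt, none of them called. The ratios of 1448771_a_at in the other tissues were 1.18 in liver, 1.10 in brain, 1.07 in spleen and 0.59 in duodenum, none of them called. Quantile normalization called liver, spleen and brain (adjusted p = 0.0158, 0.00352 and 0.00969), array weights called liver and spleen (adjusted p = 0.00146 and 0.000147), and the spleen arrays alone called spleen (adjusted p = 0.000574).

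Both Fth1 probe sets lay near the upper end of the array in control reactions, 1448771_a_at less so in bone marrow (gaps of 3.05 and 4.15). The gap between a control level and the highest value on the paired IRP2 array was 1.45 to 2.34 on 1427021_s_at and 1.08 to 4.15 on 1448771_a_at. The ratios used 20.9% to 69.2% and 32.3% to 60.0% of that gap. Among the 302 probe sets in the top 1% of control levels, 4 were called higher (1.32%, against 0.365% of all tested, or 1.07% with the replicate block) and 0 lower, by limma with or without the block. These were the 2 Fth1 probe sets, Eef1b2, a translation elongation factor subunit (0.79), and Snrpe, a core protein of spliceosomal particles (0.71). The median ratio of the 302 was -0.08. Array signals can flatten near their upper end, and whether this lowered the heavy chain's ratio was not tested.

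The light chain probe set 1418364_a_at was well below its array's maximum in control reactions. Its ratios used 36.8% to 72.6% of the gap to the highest value on the paired IRP2 array. On 1418364_a_at, duodenum had 12.30 and 13.00 with IRP2, against 8.82 and 9.86 in controls. Liver had 13.34 and 13.75 with IRP2, against 10.91 and 10.85 in controls. Spleen had 13.69 and 13.75 with IRP2, against 11.07 and 11.06 in controls. In liver and spleen the probe set moved to ranks 17 to 60 on the IRP2 arrays, against ranks 1194 to 1419 on the control arrays.

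In the iron-normal tissues, mean levels of 1418364_a_at with IRP2 were lower than in the other 3, with brain and duodenum overlapping. Bone marrow had 11.60 and 11.84 with IRP2, against 9.80 and 9.01 in controls. Brain had 10.88 and 12.65 with IRP2, against 7.48 and 8.58 in controls. The brain controls were the lowest of all, at ranks 5793 and 10203, and the IRP2 arrays stood at ranks 200 and 1173. The 2 brain replicates differed by over 1 within either reaction, and their pair ratios were 3.39 and 4.07.

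The ratio of 1418364_a_at was 3.73 in brain, 3.31 in duodenum, 2.67 in liver, 2.66 in spleen and 2.31 in bone marrow, each ± 0.50 (SE, n = 2 per reaction). Brain's was the highest ratio of any tested probe set there, a 13.3-fold difference. Limma called duodenum (adjusted p = 0.0166) and brain (adjusted p = 0.00596), where 0.073% and 0.0597% of tested probe sets were called higher. It did not call liver (adjusted p = 0.163), spleen (adjusted p = 0.0791) or bone marrow (adjusted p = 0.546). Liver and spleen were called with array weights (adjusted p = 8.99e-06 and 2.52e-07) and in fits of 1 tissue alone (adjusted p = 0.0162 and 1.15e-07). Quantile normalization added spleen and bone marrow (adjusted p = 0.0317 and 0.0455). With the replicate block all 5 tissues were called, with adjusted p-values from 3.05e-05 in brain to 0.0027 in bone marrow. The block called higher 0.139% of tested probe sets in brain, 0.282% in duodenum, 0.206% in liver, 0.292% in spleen and 0.378% in bone marrow, and 1.07% on the mean over tissues. The duodenum call without the block was lost when IRP2 replicate 1, IRP2 replicate 2 or control replicate 1 was left out (adjusted p = 0.069, 0.443 and 0.46), and when the duodenum arrays were fitted alone (adjusted p = 0.16). The brain call was lost without control replicate 1 (adjusted p = 0.117), with array weights (adjusted p = 0.386) and with the brain arrays alone (adjusted p = 1.0).

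Much the same pattern was seen on 1422302_s_at. Its pair ratios were 3.01 and 3.69 in brain, 3.23 and 2.78 in duodenum, 2.21 and 2.38 in liver, 1.58 and 1.70 in spleen and 1.41 and 2.45 in bone marrow. Spleen had 13.30 and 13.24 with IRP2, against 11.73 and 11.54 in controls, the highest light chain controls of any tissue, and bone marrow pair 1, whose control is the array that stood apart, had the lowest ratio of this probe set. Only brain was called by limma (3.35 ± 0.56, adjusted p = 0.035), a call lost without IRP2 replicate 2 or control replicate 1 (adjusted p = 0.204 and 0.561), with no filter on dim probe sets (adjusted p = 0.0587), with array weights (adjusted p = 0.386) and with the brain arrays alone (adjusted p = 1.0). The count of ferritin probe sets called in brain was lower without 16 of the 20 arrays, each left out in turn. The replicate block called all 5 tissues (adjusted p from 3.45e-05 to 0.00781). Array weights called duodenum, liver and spleen (adjusted p = 0.000261, 9.44e-05 and 0.000124). Fits of 1 tissue alone called liver and spleen (adjusted p = 0.0129 and 1.61e-05).

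The light chain probe set shared with the Mir692 genes behaved otherwise. Control levels of 1422301_at lay between 8.45 and 9.37 in all tissues, a narrower range than on the other light chain probe sets. Spleen had 10.38 and 10.30 with IRP2, against 8.77 and 8.94 in controls, and was the 1 tissue called (1.48 ± 0.21, limma, adjusted p = 0.0074; 0.063% of tested probe sets were called higher there). That call was lost without any 1 of the 4 spleen arrays (adjusted p from 0.0903 to 0.25) and after quantile normalization over all arrays (adjusted p = 0.128), but not with the replicate block (adjusted p = 0.00259). Its ratio in the other tissues was 0.49 in duodenum, 0.94 in liver, 0.86 in bone marrow and 0.60 in brain. Of these, liver was called with array weights (adjusted p = 0.00134). Brain pair 1 gave 0.19 and pair 2 gave 1.00, while the 2 pairs of every other tissue were closer to each other than these.

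**Figure D2:**
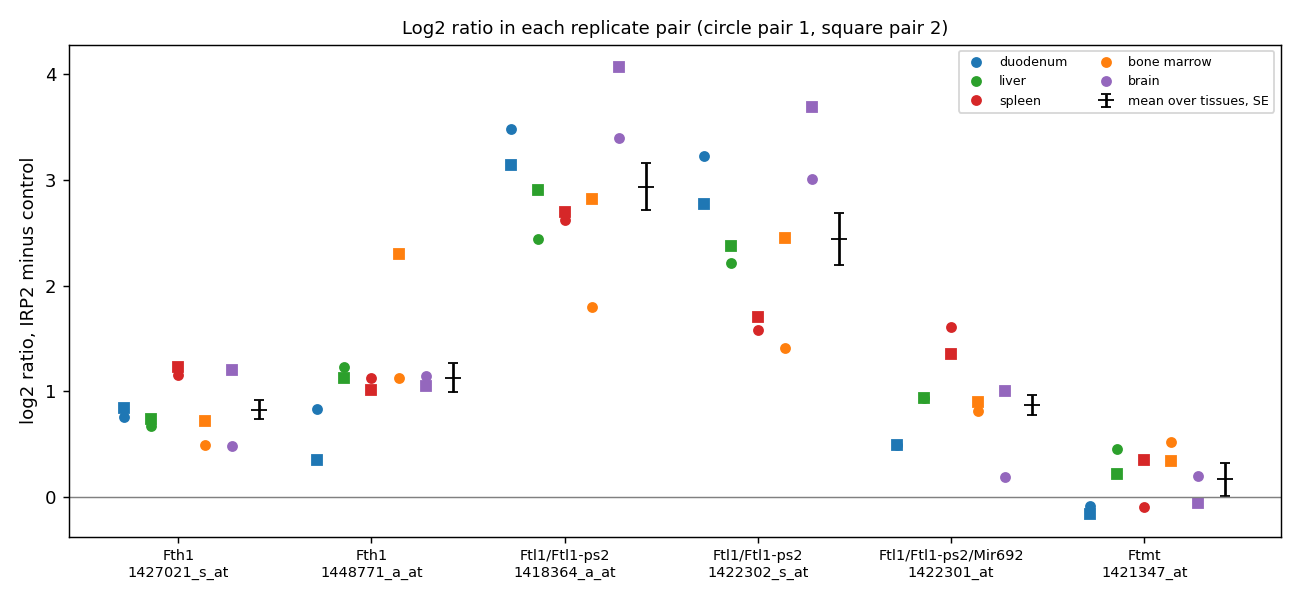
Log2 ratio, IRP2 minus control, of each ferritin probe set in the 10 replicate pairs (colours are tissues, circles pair 1, squares pair 2), with the mean over tissues and its SE in black (n = 10 arrays per reaction). All 50 points of the Fth1 and Ftl1 probe sets lie above 0, those of 1418364_a_at run from 1.80 to 4.07, and the Ftmt points lie on both sides of 0.

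Mitochondrial ferritin stayed near the middle of the array. Ftmt reached its array's median on 12 of the 20 arrays, which let it pass the filter. Duodenum had 5.89 and 5.59 with IRP2, against 5.97 and 5.76 in controls. Liver had 6.41 and 6.19 with IRP2, against 5.95 and 5.97 in controls. Spleen had 4.67 and 4.93 with IRP2, against 4.76 and 4.58 in controls. The ratio was positive in both pairs of liver and bone marrow, negative in both of duodenum, and mixed in spleen and brain. Bone marrow had 6.02 and 6.07 with IRP2, against 5.50 and 5.72 in controls. Brain had 5.72 and 4.46 with IRP2, against 5.52 and 4.52 in controls, a difference between replicates larger than any between reactions. No tissue was called (limma, adjusted p of at least 0.927 without the block and 0.151 with it), and 6 of 10 pairs were higher. Between 32.9% and 63.9% of the probe sets of an array lay below Ftmt. The testis germ cell markers Prm1, Prm2 and Tnp1 averaged 4.49 to 5.42 on the control arrays. Levels of different probe sets cannot be compared directly, and whether Ftmt is expressed in these tissues was not tested.

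The ratios of the ferritin probe sets were compared within replicate pairs, where both probe sets share the same arrays, by an exact two-sided sign-flip permutation test over the 10 pairs. This test takes the 10 pairs as independent, although the pairs of a tissue may share 1 RNA pool. Its p-values therefore concern these pairs of arrays, and not tissues or mice. Of 12 comparisons made, 3 were between probe sets with 1 symbol. The other 9 involve the shared light chain probe sets and were added once the annotation was known. The light chain probe sets were not compared with Ftmt. The light chain probe set 1418364_a_at exceeded the heavy chain 1427021_s_at by 2.11 ± 0.60 (SD, n = 10 pairs) and 1448771_a_at by 1.81 ± 0.87. It was higher in 10 of 10 pairs in both comparisons (exact p = 0.00195, the smallest 10 pairs can give, and 0.00335 adjusted over the 12). For 1422302_s_at the excess was 1.61 ± 0.79 and 1.31 ± 0.95, again in 10 of 10 pairs with the same exact p.

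The upper end of the array bounds these comparisons. In 9 of 10 pairs the ratio of 1418364_a_at was larger than the whole gap left above 1427021_s_at, and in 8 of 10 larger than the gap above 1448771_a_at. For 1422302_s_at this held in 7 of 10 and 5 of 10 pairs. In those pairs, a heavy chain ratio equal to the light chain's would have exceeded the brightest value on the array. The order of the subunits therefore describes these signals, and it does not rank the mRNAs by binding.

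Between the heavy chain probe sets no difference passed the same test (1427021_s_at minus 1448771_a_at was -0.30 ± 0.60, SD, n = 10 pairs, exact p = 0.145 adjusted over the 3 comparisons), with values from -1.58 to 0.49 over the pairs. Both ratios exceeded that of the Ftmt signal, by 0.66 ± 0.45 in 9 of 10 pairs and 0.96 ± 0.41 in 10 of 10 (exact p = 0.00586 adjusted over the 3). Whether the Ftmt signal comes from its mRNA was not tested, so this compares signals and not the recovery of that mRNA. Among the light chain probe sets, 1418364_a_at exceeded 1422302_s_at by 0.49 ± 0.29 in 10 of 10 pairs (exact p = 0.00335 adjusted over the 12) and 1422301_at by 2.06 ± 0.86. The light chain probe sets thus gave different ratios although they share symbols.

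**Figure D3:**
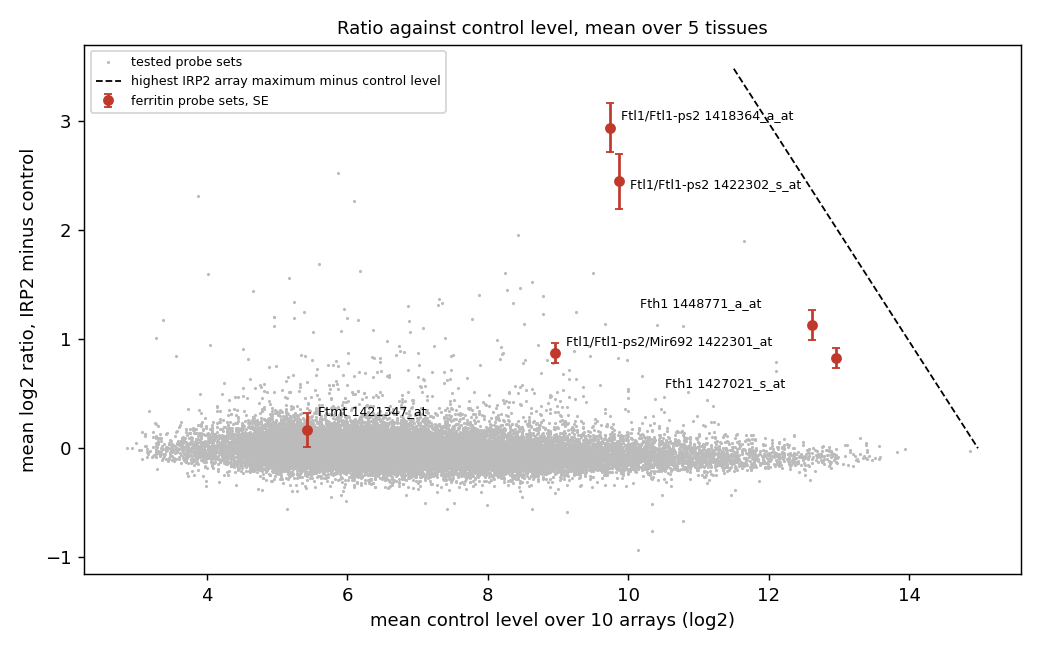
Mean log2 ratio, IRP2 minus control, over 5 tissues against the mean control level over 10 arrays, for all 30153 tested probe sets (grey) and the 6 ferritin probe sets (red, SE). The dashed line is the highest IRP2 array maximum minus the control level: the Fth1 probe sets lie at control levels of 12.6 and 13.0, nearest of the 6 to that line, and the Ftl1 probe sets 1418364_a_at and 1422302_s_at lie at 9.74 and 9.87 with ratios of 2.94 and 2.44.

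The order of the tissues by light chain level differed in part between the reactions. In control reactions, 1418364_a_at averaged 11.06 in spleen, 10.88 in liver, 9.41 in bone marrow, 9.34 in duodenum and 8.03 in brain. Spleen and liver did not overlap with the others or with each other, bone marrow and duodenum overlapped, and brain lay below all. With IRP2 the averages were 13.72 in spleen, 13.55 in liver, 12.65 in duodenum, 11.76 in brain and 11.72 in bone marrow. Here spleen overlapped liver, and brain overlapped both duodenum and bone marrow. The tissue means spanned 2.00 with IRP2 and 3.03 in control reactions on this probe set, and 1.63 with IRP2 and 3.34 in controls on 1422302_s_at. On 1422301_at the span went the other way, 1.03 with IRP2 and 0.56 in controls.

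Markers of iron-recycling macrophages, which hold much ferritin, had an order in the control reactions similar to that of 1418364_a_at and 1422302_s_at. Among the marker means, liver overlapped bone marrow and brain overlapped duodenum. The order on 1422301_at was different. Its control mean was highest in bone marrow (9.27), and spleen (8.86) lay below liver (9.02) and duodenum (8.91), with spleen and duodenum overlapping. Of the 5 markers, 4 were highest in spleen, and Adgre1 was highest in liver. The mean level of the 5 markers (Cd68, Adgre1, Cd163, Vcam1 and Hmox1) on the control arrays was 9.82 to 9.90 in spleen, 7.83 to 7.90 in liver, 7.55 to 7.96 in bone marrow, 6.51 to 6.62 in duodenum and 5.67 to 6.58 in brain. Their median ratio with IRP2 was between -0.15 and 0.12 in every tissue. Their part in the light chain levels was not tested. In pooled tissue RNA, fewer cells of a type and less RNA per cell cannot be told apart.

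Heavy chain levels in control reactions were highest in duodenum and lowest in bone marrow on both probe sets. On 1427021_s_at they averaged 13.41 in duodenum, 13.06 in brain, 13.06 in liver, 12.95 in spleen and 12.31 in bone marrow, with only brain and liver overlapping among neighbours. With IRP2, duodenum (14.21), spleen (14.14), brain (13.91) and liver (13.77) overlapped as neighbours and bone marrow (12.91) lay below.

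No ferritin probe set had ratios that differed between tissues by limma's F test over all tested probe sets. Of the 6, 0 were called with or without the replicate block. The unadjusted p of the F test was under 0.05 for 1422301_at, and with the block also for 1418364_a_at and 1422302_s_at. The share of all tested probe sets under that unadjusted threshold was not computed, so no result is drawn from it. The lowest limma adjusted p was 1.0 without the block and 0.473 with it. The F test without the block called 0.00332% of tested probe sets and with it 0.0398%. The higher ratios of 1418364_a_at and 1422302_s_at in duodenum and brain than in the other tissues are therefore given as values. On both probe sets these 2 tissues also had the lowest mean control levels, although duodenum overlapped bone marrow. On 1422301_at the lowest control means were those of brain (8.71) and spleen (8.86). A ratio is formed by subtracting the control level, so the 2 quantities are not independent, and a link between them was not tested.

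By tissue, the 6 ferritin probe sets gave 2 calls in brain, 1 each in duodenum and spleen and 0 in liver and bone marrow by limma. Of all tested probe sets, 0.0597% were called higher in brain, 0.073% in duodenum, 0.063% in spleen, 0.0332% in liver and 0.00995% in bone marrow. At an unadjusted p under 0.05 the counts were 4 in duodenum and 5 in each other tissue, where the share of all tested probe sets that passed was 0.551% for brain, 1.05% for duodenum, 0.793% for liver, 0.869% for spleen and 1.73% for bone marrow. With the replicate block the calls were 4 in spleen, 3 in bone marrow and 2 in each other tissue. The block called higher 0.292% of all tested probe sets in spleen, 0.378% in bone marrow, 0.139% in brain, 0.282% in duodenum and 0.206% in liver. The light chain probe sets 1418364_a_at and 1422302_s_at were called in each tissue, with the heavy chain added in spleen and bone marrow and 1422301_at in spleen. Both IRP2 arrays lying above both controls was common over all probe sets (15.6% of those tested for spleen, 14.5% for bone marrow, 14.4% for duodenum, 13.9% for liver and 4.21% for brain), so this separation in 1 tissue alone carries little.

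Other mRNAs with an IRE gave a scale for the ferritin ratios. There were 5 with a tested probe set of 1 symbol, each represented by its brightest. On the mean over tissues 3 rose by limma and 5 with the replicate block, with a median ratio of 1.45. Of all tested probe sets, 0.365% rose by limma and 1.07% with the block. Tfrc, the transferrin receptor, which carries its elements at the other end of the mRNA, had 13.54 with IRP2 and 11.64 in controls, a ratio of 1.90 ± 0.12 (SE, n = 10 per reaction). Alas2, which starts heme synthesis in erythroid cells, had 1.52 ± 0.11, and the iron importer Slc11a2 had 1.45 ± 0.12. The iron exporter Slc40a1 had 0.45 ± 0.12 (adjusted p = 0.356, or 0.0303 with the block) and the hypoxia factor Epas1 had 0.46 ± 0.14 (adjusted p = 0.576, or 0.0112 with the block).

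Against these brightest probe sets, the light chain's ratios of 2.94 and 2.44 were higher than any and the heavy chain's lay between those of Slc11a2 and Epas1. The order depends on the probe set: those of Tfrc ran from 1.90 to 3.30, of Slc40a1 from 0.45 to 1.61, of Epas1 from 0.46 to 0.77 and of Slc11a2 from -0.10 to 1.45. Slc40a1 and Epas1 each had 1 dimmer probe set that was called without the block, so the count of 3 rests on taking the brightest. Differences between these genes were not tested. Within tissues, calls among the 5 were 3 in liver, 2 each in brain and duodenum, 1 in spleen and 0 in bone marrow. Of all tested probe sets, 0.0332%, 0.0597%, 0.073%, 0.063% and 0.00995% were called higher there, in the same order. The replicate block raised spleen to 4 and bone marrow to 2, where it called 0.292% and 0.378% of all tested.

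**Figure D4:**
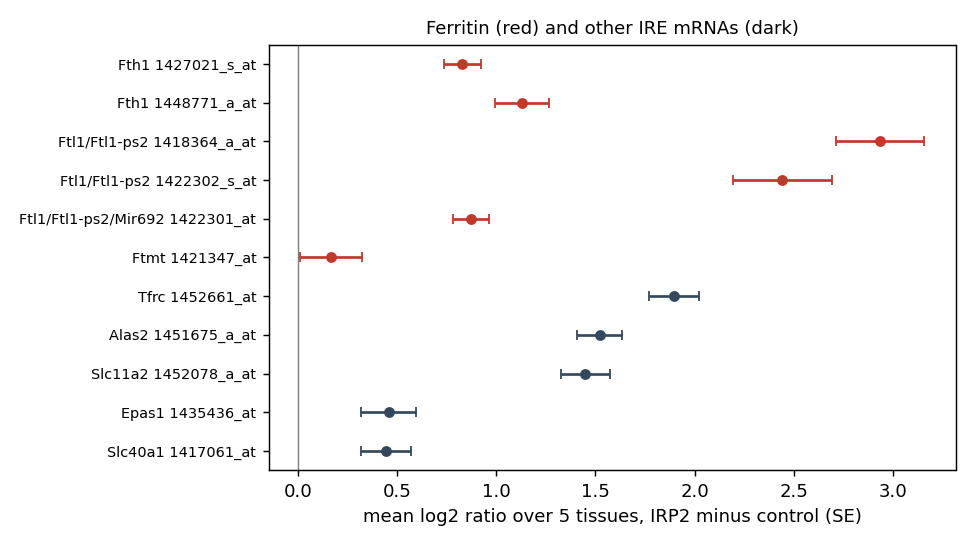
Mean log2 ratio over 5 tissues, IRP2 minus control, with its SE (n = 10 arrays per reaction) for the 6 ferritin probe sets (red) and the brightest probe set of 5 other IRE mRNAs (dark). The Ftl1 probe sets 1418364_a_at and 1422302_s_at have the 2 highest values, 2.94 and 2.44, and Ftmt (0.17) the lowest.

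Listed genes related to ferritin or its regulation, without a known IRE, had a median ratio near that of all tested probe sets. Across 6 lists, covering iron loading and turnover of ferritin, its uptake and release, the IRP proteins, mitochondrial iron, regulators of ferritin transcription and antioxidant-response targets, 31 of 34 genes other than Tfrc had a tested probe set. Limma called 0 of the 31 with or without the block, 0 had an unadjusted p under 0.05 without it and 2 did with it (Fbxl5 and Keap1). Of all tested probe sets, 0.365% were called higher, or 1.07% with the block, so 0 calls among 31 genes carry little. The share of all tested under the unadjusted threshold was not computed. Their ratios on the mean over tissues ran from -0.31 to 0.22 with a median of -0.04, against -0.02 over all tested. The median of a list was lowest for the IRP proteins and their turnover (-0.17) and highest for the regulators of transcription (0.02).

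The members named next show how flat these were. Of the iron chaperones that load ferritin, Pcbp1 had 11.30 with IRP2 and 11.39 in controls (ratio -0.10 ± 0.15) and Pcbp2 a ratio of 0.04 ± 0.19. Ncoa4, the receptor that delivers ferritin to lysosomes, had 8.82 with IRP2 and 9.02 in controls (-0.19 ± 0.20). The ferritin receptors Scara5 and Timd2 had -0.09 ± 0.20 and -0.08 ± 0.16, while Tfrc, which takes up heavy chain ferritin in human cells, was the 1 called gene of its list. Among regulators of the IRPs, Aco1, which encodes IRP1, had -0.10 ± 0.13, Ireb2, which encodes IRP2 itself, had -0.31 ± 0.18, and Fbxl5, which marks IRP2 for degradation, had -0.25 ± 0.18. The mitochondrial iron importers Slc25a37 and Slc25a28 had -0.11 ± 0.16 and 0.04 ± 0.10. Nfe2l2, Keap1 and Bach1, which set the antioxidant response that ferritin genes share, had -0.16 ± 0.18, 0.22 ± 0.21 and 0.03 ± 0.19, and their targets Nqo1, Hmox1 and Gclm lay between -0.13 and -0.04.

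The genes most like the heavy chain were sought by the root mean square difference of the 10 pair ratios from those of 1427021_s_at, among tested probe sets with 1 symbol. The closest were Cep57 (0.23), Ubxn1 (0.29), Tnfrsf1b (0.32), Akip1 (0.33) and Prkch (0.33). All were called on the mean over tissues with mean ratios from 0.65 to 0.88. Ratios like the heavy chain's follow from this choice, so these calls are no separate result. Their mean control levels of 6.46 to 8.21 lay far below the heavy chain's 12.96. For the light chain 1418364_a_at the closest were Lrpap1 (0.85), Tfrc on its probe set 1422966_a_at (0.96), Cxcl16 (1.07), Nt5c (1.15) and Egr2 (1.42). These distances were larger than those for the heavy chain.

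By level on the 10 control arrays, the genes with the highest Pearson correlation differed from those above. For the heavy chain they were 2610507B11Rik, Pde4dip, Smad1, Creb3 and Yes1 (r from 0.97 to 0.98), and for the light chain Stard5, Bst2, Ctsh, Gfer and Ifitm3 (r from 0.96 to 0.97). The 10 arrays come from only 5 tissues and share the differences in array medians, so these values describe tissue patterns. None of the 10 was called on the mean over tissues, where 0.365% of all tested probe sets were called higher. Their mean ratios lay between -0.10 and 0.03.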

How the data were processed

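RNA recovered with or without IRP2 was measured on 20 arrays. Values were deposited as log2 summaries per probe set, between 1.77 and 15.0. The series' design text says that the authors made intensities with RMA in Bioconductor, or with MAS5 in GCOS followed by quantile normalization; which of these applies, versions and arrays normalized together are not given in the sources used here. Per the labels, titles give tissue, reaction and replicate.

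After removal of 64 Affymetrix control probe sets from the 45101, tests ran on the 30153 that reached their own array's median on at least 2 of 20 arrays. Symbols came from the platform annotation (34958 probe sets with 1 symbol, 932 with several, 9211 with none), and all 7 ferritin-related symbols were found in the RefSeq table of GRCm38.p6. Probe sets with several symbols are named only where they include a ferritin gene.

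Limma 3.58.1 in R 4.3.3 fitted a mean for each of 10 groups (10 residual degrees of freedom, prior 5.34), with contrasts IRP2 minus control per tissue, their mean, and an F test of equal tissue ratios. P-values were adjusted over all tested probe sets. Deviations of arrays with the same number correlated at 0.251 (bone marrow) to 0.923 (brain), so the numbers were treated as pairs, on the evidence of these values, and the replicate block (5 residual degrees of freedom, prior 7.52) is printed beside each result whose call or count it altered and beside some it did not. The fits were tested on simulated data.

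The named genes are all ferritin probe sets, the other IRE mRNAs and every called gene of the lists with up to 3 further members per list, 5 genes most like Fth1 and Ftl1 by each of 2 measures, and called probe sets in the top 1% of control levels. The members and lists were chosen with earlier results of these data known. Alternatives were the block, filters, normalizations, variance models, fits per tissue and leaving out arrays. 1 listed item is not reported here.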

Additional observations from a re-analysis of the deposited data

Results flagged for a closer look

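The ratio of Ftmt (1421347_at) went opposite ways between tissues: both pairs were higher with IRP2 in liver (0.46 and 0.21) and in bone marrow (0.52 and 0.35), and both were lower in duodenum (-0.08 and -0.16). The mean ratio in liver exceeded that in duodenum by 0.46, and the mean ratio in bone marrow exceeded it by 0.56. These 2 differences were picked for their signs and were not tested on their own. Limma's F test of equal ratios over the 5 tissues gave an adjusted p of 1.0 for this probe set, and 0.827 with the replicate block.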

How the results depend on the processing

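On the mean over tissues, the 5 called ferritin probe sets stayed called under all 8 alternatives and without any 1 of the 20 arrays (count 5 throughout); the ratio of 1418364_a_at ran from 2.94 to 3.09 and that of 1427021_s_at from 0.83 to 0.89, and without single arrays from 2.76 to 3.11 and from 0.77 to 0.89. Calls within tissues depended on the processing. The reported counts were 1 for duodenum, 0 for liver, 1 for spleen, 0 for bone marrow and 2 for brain (0.073%, 0.0332%, 0.063%, 0.00995% and 0.0597% of all tested). The replicate block gave 2 for duodenum, 2 for liver, 4 for spleen, 3 for bone marrow and 2 for brain (0.282%, 0.206%, 0.292%, 0.378% and 0.139% of all tested). Array weights gave 2 in duodenum, 5 in liver, 5 in spleen and 0 in brain, where 0.149%, 0.308%, 0.68% and 0% of all tested probe sets were called higher. Quantile normalization over 20 arrays gave 1 for liver, 3 for spleen, 2 for bone marrow and 3 for brain (0.0431%, 0.0763%, 0.0464% and 0.0796% of all tested). No filter gave 2 in spleen and 1 in brain (0.0488% and 0.04%). Fits of 1 tissue alone gave 0 in duodenum, 2 in liver, 5 in spleen and 0 in brain (0%, 0.0431%, 0.64% and 0%). Leaving out single arrays gave 0 to 2 for duodenum, 0 to 1 for liver, 0 to 3 for spleen, 0 to 2 for bone marrow and 0 to 2 for brain. The cause was not tested. Of 360 recomputed tissue values of single probe sets, 307 kept their side of the threshold, 36 newly passed it, 17 no longer did, and 0 called values changed sign. Among the listed genes, the replicate block raised the count called to 5 on the mean over tissues, 4 in spleen and 2 in bone marrow, against 3, 1 and 0. Quantile normalization gave 4, 2 and 1 in the same order. In that order, the shares of all tested probe sets called higher were 0.365%, 0.063% and 0.00995% as reported. They were 1.07%, 0.292% and 0.378% with the block, and 0.478%, 0.0763% and 0.0464% with quantile normalization. The F test called 0 ferritin probe sets throughout. In the comparisons between probe sets, leaving out single pairs moved 1418364_a_at minus 1427021_s_at between 2.02 and 2.20, and all 12 comparisons kept their side of the threshold. Ftmt lay near the middle of the array and Fth1 near its upper end. What these positions did to their ratios was not tested.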
